A study of Mus musculus with 2 samples.

Results

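The nuclear genes of the mitochondrial respiratory chain were followed in mouse embryonic stem cells grown in a microfluidic chamber and on a 6-well plate. The members were taken by symbol from array probe sets that carried a single gene symbol. The symbols were those beginning Nduf (complex I and its Ndufaf assembly factors), Sdha to Sdhd (complex II), Uqcr (complex III), Cox4 to Cox8 (complex IV) and Atp5 (complex V). Ndufa4l2 and Cox4i2 were left out by the same rule. This gave 79 genes, measured by 87 probe sets, of 23370 genes on the array. There were 32 complex I subunits, 4 Ndufaf assembly factors, 4 genes of complex II, 7 of complex III, 16 of complex IV and 16 of complex V.

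The microchamber group was 1 array of ES-D3 cells, a pluripotent line of strain 129S2/SvPas, cultured in a microfluidic chamber with little perfusion. The 6-well plate group was 1 array of the same line in a standard culture plate. Both cultures had 15% serum and 1000 U of leukaemia inhibitory factor, which keeps the cells undifferentiated. Seeding was at 20000 cells/cm2, and RNA was harvested after 3 days. Affymetrix Mouse Gene 2.0 ST arrays measured total RNA, and the comparison asked how culture in the chamber alters gene expression.

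The respiratory chain passes electrons from NADH (through complex I) and succinate (through complex II) to ubiquinone, then through complex III, cytochrome c and complex IV to oxygen. Protons pumped on the way drive complex V, the ATP synthase. Complex II is encoded wholly in the nucleus and also works in the citric acid cycle, whereas the other complexes combine nuclear subunits with subunits made from mitochondrial DNA. Cultured pluripotent stem cells rely strongly on glycolysis, and low oxygen is known to shift some subunits to alternative isoforms.

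Values are log2 values after robust multi-array average (RMA) normalization, and each difference is microchamber minus 6-well plate. With 1 array per group there was no replicate and no test, and RMA gives both arrays the same overall distribution. A lower signal from fewer cells of a type and from less RNA per cell cannot be told apart. The arrays had medians of 5.82 in the chamber and 5.82 on the plate, and correlated at r = 0.99 across genes, which are not independent replicates. The spread within genes was taken from 791 genes with 2 probe sets left after dim ones and repeats of identical values were dropped. Dim meant a higher value under 5.17. The 2 differences of a gene scattered around its mean with a within-gene standard deviation of 0.21. That is the spread inside this pair of arrays, not the spread between cultures. A gene entered the counts when its higher value reached the 20th percentile of single-symbol probe sets on that array (5.18 in the chamber, 5.17 on the plate). Of all genes 19098 did so, and of the 79 members 78 did; the exception was Cox7b2, a testis isoform, at 5.06 in the chamber and 4.90 on the plate. In all, 48 of the 78 lay in the highest of 4 equal groups of genes by mean level.

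Pluripotency markers were present on both arrays. Their 8 genes lay between 6.27 and 12.81 in the chamber and between 6.57 and 13.08 on the plate. Their summed linear signal was 23466 in the chamber and 24786 on the plate, and 6 of the 8 were higher in the chamber. Fibroblast and feeder markers had less signal, with sums of 736.2 in the chamber and 925.3 on the plate over 8 genes. The brightest, Pdgfrb, had 7.48 in the chamber and 7.97 on the plate. All 7 of these markers that passed the filter were lower in the chamber, with differences from -0.49 to -0.05. Lum did not pass it, and 4 of the 8 lay below the median of single-symbol probe sets. The part of these cells in the differences below was not tested.

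Most members were slightly lower in the chamber, and few were higher. Of the 78 members, 60 lay below 0, which is 76.9%, whereas 52.3% of all 19098 genes did. The other 18 lay above 0, as did 46.9% of all genes. The member median was -0.15, and the median of all genes was -0.01. None was 2-fold apart in either direction; over all genes 0.445% were at least 2-fold lower and 0.346% at least 2-fold higher. At 0.5 log2 units (1.41-fold) 5 members were lower, or 6.41%, against 4.26% of all genes, and none was higher, against 3.60%. At 0.25 log2 units (1.19-fold) 19 members were lower, or 24.4%, and 1 was higher, or 1.28%. Over all genes these shares were 15.1% lower and 12.3% higher.

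Because most members are well expressed, the same shares were taken over the 12136 genes whose higher value reached the median of single-symbol probe sets on that array. Of those genes 54.0% lay below 0, 21.6% were lower by at least 0.25 and 17.5% were higher by at least 0.25. Of the 73 members at that level 56 lay below 0, 18 were lower by at least 0.25 and 1 was higher. The share of members lower by 0.25, 24.7%, was thus near the 21.6% of genes of that level, whereas the share higher, 1.37%, was well under 17.5%. At this cut of 0.25 the members differed from other genes of that level mainly in having few higher values. More of the members also lay below 0, 76.7% against 54.0%, with a median of -0.16 against -0.03. For 49 of the 78 members the difference was no larger than 0.21, the within-gene standard deviation. Of the others, 27 were lower by more and 2 were higher by more. The share of all genes past this limit was not taken, so these counts describe the members only.

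**Figure D1:**
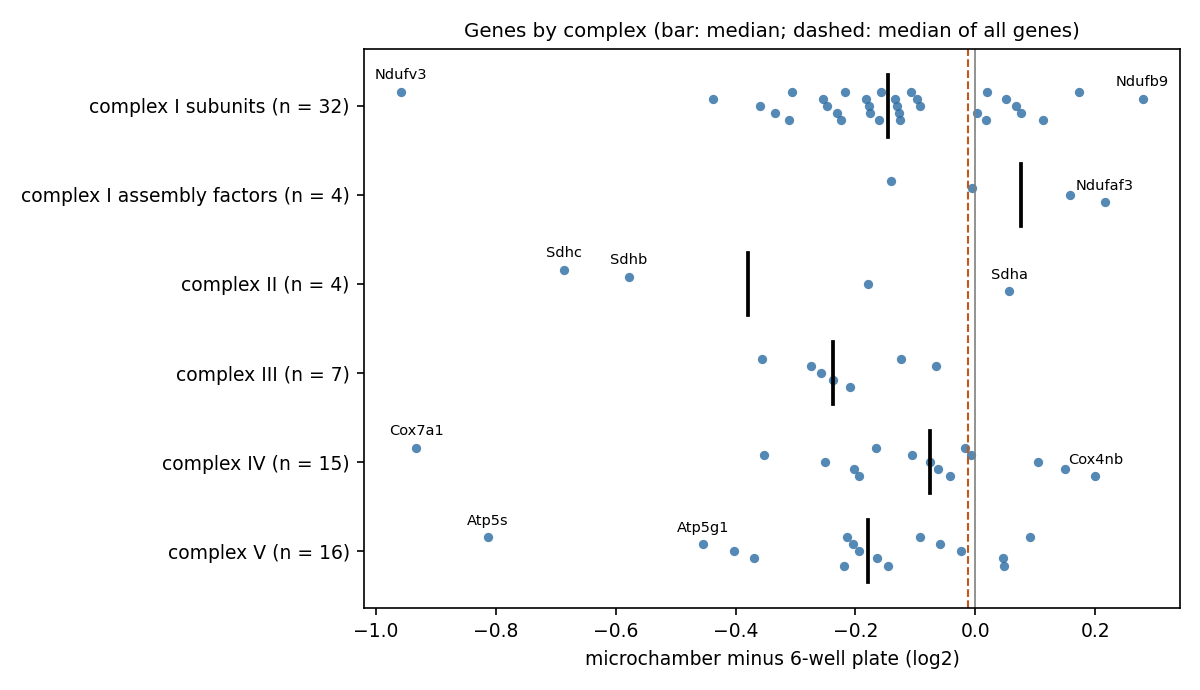
Difference of each member (points, microchamber minus 6-well plate, log2) by complex, with the class median as a black bar and the median of all genes as a dashed line. Complex III lies wholly below 0, the 4 Ndufaf assembly factors lie on both sides, and Ndufv3, Cox7a1 and Atp5s stand apart at the low end.

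The promoters of the 4 lowest members that have a window in the reference table are shown first, since they hold or lack the sites of the regulators described further on. Windows run from 250 bases before to 50 after a transcript start, which for Atp5s is not the outermost base of the gene, come from RefSeq (GRCm38.p6) and read 5′ to 3′. The capitals mark motif cores searched on both strands: TGCGCA, the core of the nuclear respiratory factor 1 (NRF-1) site and its own complement; CCGGAAG, an ETS or GABPA core; AAGGTCA, an oestrogen-related receptor (ERR) core; and ACGTG, the core of the hypoxia element.
Ndufv3 promoter, chr17:31519865-31520164, plus strand: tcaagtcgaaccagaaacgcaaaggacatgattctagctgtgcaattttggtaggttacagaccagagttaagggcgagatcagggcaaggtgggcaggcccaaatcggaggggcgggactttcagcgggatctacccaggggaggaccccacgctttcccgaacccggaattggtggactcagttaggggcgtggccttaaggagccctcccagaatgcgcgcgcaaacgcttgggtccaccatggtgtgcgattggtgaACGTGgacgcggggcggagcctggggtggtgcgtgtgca
Cox7a1 promoter, chr7:30183921-30184220, plus strand: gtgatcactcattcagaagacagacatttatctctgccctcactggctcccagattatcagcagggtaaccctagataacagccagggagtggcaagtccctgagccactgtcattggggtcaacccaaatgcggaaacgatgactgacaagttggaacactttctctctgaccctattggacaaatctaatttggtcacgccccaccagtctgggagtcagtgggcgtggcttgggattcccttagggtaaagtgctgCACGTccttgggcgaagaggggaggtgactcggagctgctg
Atp5s promoter, chr12:69724695-69724994, plus strand: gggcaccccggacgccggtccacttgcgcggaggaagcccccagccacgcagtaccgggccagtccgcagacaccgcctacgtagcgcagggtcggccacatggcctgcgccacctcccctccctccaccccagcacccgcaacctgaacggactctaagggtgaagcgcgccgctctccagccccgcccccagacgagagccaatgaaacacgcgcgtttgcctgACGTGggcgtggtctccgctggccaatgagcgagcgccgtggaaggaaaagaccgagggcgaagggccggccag
Sdhb promoter, chr4:140961021-140961320, plus strand: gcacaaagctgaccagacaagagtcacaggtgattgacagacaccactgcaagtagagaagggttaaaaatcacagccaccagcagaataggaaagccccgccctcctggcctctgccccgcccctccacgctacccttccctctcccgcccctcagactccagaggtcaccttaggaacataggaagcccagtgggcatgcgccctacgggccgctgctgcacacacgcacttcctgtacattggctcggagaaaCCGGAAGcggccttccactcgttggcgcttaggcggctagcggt

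The ACGTG core was found in Ndufv3, Cox7a1 and Atp5s, and Sdhb held the ETS core instead. Of the 79 members 66 had a window in the table, and for each gene the first listed window was used. ACGTG was in 20 of them (30.3%), compared with 20.7% of 17492 promoters of protein-coding genes. TGCGCA was in 15 members (22.7%, against 10.1%), CCGGAAG in 16 (24.2%, against 11.9%) and AAGGTCA in 5 (7.58%, against 4.08%). The protein-coding promoters were not matched to the members by expression level or base composition, so these shares are not like for like. All 5 promoters with the ERR core belonged to complexes II and V, with 1 in complex II and 4 in complex V. ACGTG was in 8 of the 15 windows of complex V (53.3%), and in 21.4% to 33.3% of those of each other class. Among members past the filter the median difference was -0.20 for the 15 with the NRF-1 core and -0.13 for the 50 without it. It was -0.20 for the 20 with ACGTG and -0.13 for the 45 without it. The share below 0 went the other way, with 14 of the 20 with ACGTG (70%) and 36 of the 45 without it (80%). The median was -0.12 for the 16 with the ETS core and -0.16 for the 49 without it. For the ERR core it was -0.22 over the 5 with it and -0.14 over the 60 without it. A match in these windows is a description of letters and not a bound site.

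Complex I, the NADH dehydrogenase, had 23 of its 32 subunits lower in the chamber, with a median of -0.15. Its lowest subunit was Ndufv3, an accessory subunit of the NADH-oxidising tip, whose gene lies on chromosome 17 (31520115 to 31531326, GRCm38). Ndufv3 had 8.52 in the chamber and 9.48 on the plate, a difference of -0.96 or 1.94-fold, and 98 of the 19098 genes were as low or lower. Ndufb11, of the membrane arm, followed at 5.68 in the chamber and 6.12 on the plate (-0.44), both values lying below the median of single-symbol probe sets, 6.10 in the chamber and 6.13 on the plate. The next lowest was Ndufs7, whose iron-sulphur cluster hands electrons to ubiquinone, at 10.02 in the chamber and 10.38 on the plate (-0.36). Ndufb10 (-0.33), Ndufb8 (-0.31) and Ndufa6 (-0.31), all accessory subunits, were close behind.

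The catalytic core that oxidises NADH and reduces ubiquinone was lower by small amounts in most of its nuclear subunits. Ndufv1, which binds NADH and the flavin, had 9.51 in the chamber and 9.76 on the plate (-0.25). Its iron-sulphur partner Ndufv2 had 10.39 in the chamber and 10.61 on the plate (-0.22). Further core subunits below 0 were the iron-sulphur protein Ndufs1 at -0.13, Ndufs7 as above and the iron-sulphur protein Ndufs8 at -0.10. Ndufs3, a scaffold of the quinone-reducing part, was the exception with 7.67 in the chamber and 7.50 on the plate (0.17). The differences of Ndufs1, Ndufs3 and Ndufs8 were within the within-gene standard deviation of 0.21.

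By position in the enzyme, the NADH-oxidising part had a median of -0.18 over 9 subunits, the quinone-reducing part -0.13 over 6 and the membrane arm -0.13 over 15. In the NADH-oxidising part 7 of 9 lay below 0, in the quinone-reducing part 5 of 6 and in the membrane arm 10 of 15. The 3 medians were thus close to each other. Only the membrane arm held a subunit that was higher by over 0.25. That was Ndufb9, an accessory subunit with 11.78 in the chamber and 11.50 on the plate (0.28). Among the other subunits above 0 were Ndufb7 at 0.11 and Ndufs4, an accessory subunit of the NADH-oxidising part whose loss causes Leigh-like disease in mice, at 0.08. Ndufab1, the mitochondrial acyl carrier protein, which also serves lipoic acid synthesis, was at 0.02. Ndufa4, named for complex I but now placed in complex IV, had 10.42 in the chamber and 10.60 on the plate (-0.18).

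The Ndufaf assembly factors, which build complex I and are not part of the finished enzyme, lay around 0. Ndufaf1 had 7.73 in the chamber and 7.87 on the plate (-0.14), and Ndufaf2 had 6.63 in the chamber and 6.63 on the plate (-0.01). Ndufaf4 had 8.58 in the chamber and 8.43 on the plate (0.16), and Ndufaf3, which acts with it early in assembly, had 8.35 in the chamber and 8.14 on the plate (0.22). Their median of 0.08 compares with -0.15 for the subunits, but 4 genes are few, and 9 of 32 subunits also lay above 0. Complex I assembly factors with other names gave a different picture. All 7 of those past the filter were lower in the chamber, with a median of -0.20. Nubpl, which delivers iron-sulphur clusters to complex I, was lowest at -0.53, followed by Ecsit at -0.40 and Tmem70, which also assists ATP synthase assembly, at -0.29. For complex I the assembly factors thus gave different medians under the 2 kinds of symbol.

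Complex II, succinate dehydrogenase, was the class with the lowest median, -0.38, over its 4 genes, and the 4 were unequal. Sdhc, a membrane anchor that binds haem and ubiquinone, lies on chromosome 1 (171129157 to 171150640, GRCm38) and had 9.58 in the chamber and 10.26 on the plate (-0.69, 1.61-fold lower). Sdhb, the iron-sulphur subunit, on chromosome 4 (140961271 to 140979198), had 8.97 in the chamber and 9.55 on the plate (-0.58, 1.49-fold lower). These were 2 of the 5 members lower by at least 0.5. Sdhd, the other membrane anchor, had 9.83 in the chamber and 10.01 on the plate (-0.18). Sdha, the flavoprotein that oxidises succinate, had 10.86 in the chamber and 10.80 on the plate (0.06). The catalytic flavoprotein was thus level while its iron-sulphur partner and an anchor were lower. The assembly factors of complex II were split, with Sdhaf1, which serves the iron-sulphur subunit, at -0.16 and Sdhaf2, which attaches the flavin to Sdha, at 0.22.

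Complex III, the cytochrome bc1 complex, was the only class in which every measured member was lower. Its 7 differences ran from -0.36 to -0.07, with a median of -0.24. The core proteins Uqcrc1 and Uqcrc2 hold the complex together on the matrix side. Uqcrc1 had 11.54 in the chamber and 11.82 on the plate (-0.27), and Uqcrc2 had 10.58 in the chamber and 10.82 on the plate (-0.24). Uqcrfs1, the Rieske iron-sulphur protein, had 7.64 in the chamber and 7.76 on the plate (-0.12). Among the small accessory subunits Uqcr11 was at -0.36, Uqcrq at -0.26, Uqcrb at -0.21 and the hinge protein Uqcrh at -0.07. Cyc1, the cytochrome c1 subunit, falls outside the symbol rule. It had 9.51 in the chamber and 10.07 on the plate (-0.55), below every Uqcr gene. Cycs, the soluble cytochrome c that carries electrons to complex IV, was at 0.08.

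**Figure D2:**
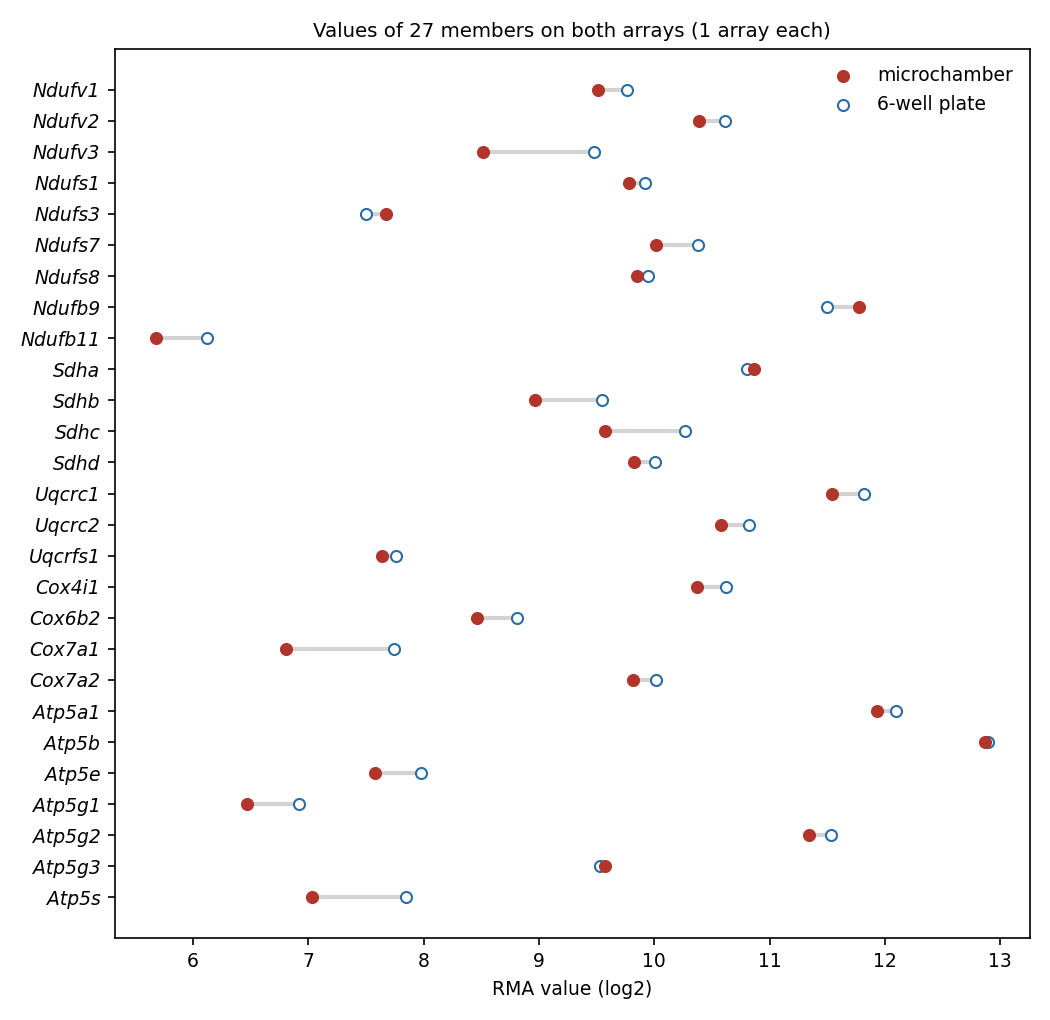
RMA values (log2) of 27 members in the microchamber (filled) and on the 6-well plate (open), 1 array each. The widest gaps are those of Ndufv3, Cox7a1, Atp5s, Sdhc and Sdhb, and Sdha, Ndufs3, Ndufb9 and Atp5g3 are the ones with the filled point to the right.

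Complex IV, cytochrome c oxidase, had 12 of 15 members below 0 and a median of -0.07. With the filter at the 50th percentile the median was -0.14, beside -0.13 for the complex I subunits. Its lowest member was Cox7a1, the heart and muscle isoform of subunit VIIa, on chromosome 7 (30184171 to 30186030, GRCm38). Cox7a1 had 6.81 in the chamber and 7.74 on the plate (-0.93, 1.91-fold lower), and 114 of 19098 genes were as low or lower. Its widely expressed counterpart Cox7a2 had 9.81 in the chamber and 10.02 on the plate (-0.20), and Cox7a2l, which helps join complexes III and IV, was at -0.19. The muscle isoform thus had the larger difference of the pair. Of the 6 striated muscle markers 3 lay below 0, and 52.3% of all genes did. Their differences ran from -0.19 to 0.16, with summed signals of 355.3 in the chamber and 358.4 on the plate. Of these markers 4 lay below the median of single-symbol probe sets, and differences were narrower at low signal. Whether muscle cells had a part in the Cox7a1 difference was not tested.

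The other isoform pairs of complex IV gave smaller differences. Cox6b2, a testis isoform, had 8.46 in the chamber and 8.81 on the plate (-0.35), and its widespread counterpart Cox6b1 was at -0.11. Cox6a2, a muscle isoform, was at 0.10 and Cox6a1 at -0.01. Cox8b and Cox8c, the muscle and testis isoforms of subunit VIII, had 5.18 and 5.20 in the chamber and 5.20 and 5.27 on the plate, close to the filter. Over all genes differences were narrower at low signal: their standard deviation was 0.13 in the dimmest of 4 equal groups and 0.35 in the brightest. Their widespread counterpart Cox8a was at -0.17. Cox4i1, the common isoform of subunit IV, had 10.37 in the chamber and 10.62 on the plate (-0.25), and Cox5a was at -0.06. Cox7c was at 0.15, from a low 6.16 in the chamber and 6.01 on the plate.

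The highest gene of this class is not an oxidase subunit. Cox4nb, the neighbour of Cox4i1 on chromosome 8 (120653914 to 120668087, GRCm38), is now named Emc8 and encodes a part of the endoplasmic reticulum membrane complex. It had 9.92 in the chamber and 9.72 on the plate (0.20), opposite in sign to Cox4i1, whose gene starts at 120668225. The isoforms left out by the rule include the largest difference of any gene with these symbols. Ndufa4l2, a hypoxia-induced relative of Ndufa4, had 6.66 in the chamber and 9.08 on the plate (-2.41), whereas Ndufa4 was at -0.18. Cox4i2, the isoform of subunit IV used in low oxygen, had 6.42 in the chamber and 6.79 on the plate (-0.38), and Cox4i1 was at -0.25.

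Complex V, the ATP synthase, had 13 of 16 members below 0 and a median of -0.18. All 5 subunits of the catalytic F1 head were below 0, by unequal amounts. Atp5b, the catalytic beta subunit, had 12.87 in the chamber and 12.89 on the plate (-0.02), near the top of the range of both arrays. Atp5a1, the alpha subunit, had 11.93 in the chamber and 12.09 on the plate (-0.16). The central stalk subunits were Atp5c1 (gamma) at -0.15, Atp5d (delta) at -0.21 and Atp5e (epsilon) at -0.40. Atp5e had 7.58 in the chamber and 7.98 on the plate.

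The c ring, which turns as protons pass, is encoded by 3 genes whose mature proteins are known to be the same and whose import sequences differ. Atp5g1 had 6.47 in the chamber and 6.92 on the plate (-0.46), Atp5g2 had 11.34 in the chamber and 11.53 on the plate (-0.19), and Atp5g3 had 9.58 in the chamber and 9.53 on the plate (0.05). The 3 genes thus differed in the size of the difference, and Atp5g3 also in its sign. Among the membrane subunits that hold synthase dimers together, Atp5l was at -0.37, Atp5k at -0.22 and Atp5j2 at -0.06. In the peripheral stalk Atp5f1 was at -0.20, Atp5j at -0.09 and Atp5h at 0.09. Atp5s, or factor B, a coupling factor now named Dmac2l, was lowest of the class and lies on chromosome 12 (69724913 to 69744665, GRCm38). It had 7.03 in the chamber and 7.84 on the plate (-0.81, 1.76-fold lower). Its relative Atp5sl, now named Dmac2 and known as an assembly factor of the complex I membrane arm, was at 0.05.

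Probe sets that were not averaged show how far single measurements can be trusted. Of the 8 members with 2 probe sets, 5 had both below 0, 1 had both above 0 and 2 had them on opposite sides. The gap between the 2 probe sets ran from 0.06 for Atp5g2 to 0.25 for Ndufa11, with a median of 0.19. The differences of Atp5e were -0.28 and -0.52 and those of Atp5d -0.09 and -0.34. Those of Ndufa8 were -0.19 and -0.28, and those of Ndufa11 were -0.09 and -0.34. Ndufa12 had 0.17 and -0.06, Cox7b 0.04 and -0.12, and Atp5h 0.17 and 0.01. Some of these pairs were unlike in signal. On the plate Cox7b had 5.53 for the probe set at 0.04 and 10.84 for that at -0.12. Ndufa11 had 5.91 for the one at -0.09 and 9.82 for the one at -0.34. The gaps between probe sets are as wide as most members' differences.

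A further 15 probe sets carried a respiratory chain symbol beside the symbol of another gene, often a predicted copy, and took no part in the counts above. They name 11 genes, of which 9 are not otherwise measured here. All 15 were lower in the chamber, by 0.02 to 0.41 with a median of -0.14, whereas 44.0% of 1798 probe sets with several symbols lay below 0. The lowest were Uqcr10 of complex III, with 7.75 in the chamber and 8.17 on the plate (-0.41), and the second probe set naming Uqcrb (-0.41). Ndufs5 (-0.34 and -0.11) and Ndufc2 (-0.32), both of the complex I membrane arm, came next. The oxidase subunits Cox5b and Cox6c lay between -0.14 and -0.02. The signal of these probe sets may be shared with the copies they name.

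The mitochondrial genome's own subunits differed the other way. Of 12 probe sets for these genes 11 were higher in the chamber, with a median of 0.11, whereas 46.9% of all genes lay above 0. Most of the 11 were within the within-gene standard deviation of 0.21, and 1 was higher by at least 0.25. The 12 probe sets lay between 11.80 and 13.70 in the chamber and between 12.52 and 13.66 on the plate. These values were close to the highest of the arrays, 13.71 in the chamber and 13.73 on the plate. The complex I subunit ND3 had 13.29 in the chamber and 12.52 on the plate (0.77), and ND2 was at 0.22. The exception was ND6, also of complex I and the only protein encoded on the light strand, with 11.80 in the chamber and 12.68 on the plate (-0.88). CYTB of complex III was at 0.10, and COX1 and COX3 of complex IV were at 0.12 and 0.16. Most nuclear and most mitochondrial subunits thus lay on opposite sides of 0, mostly by small amounts.

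**Figure D3:**
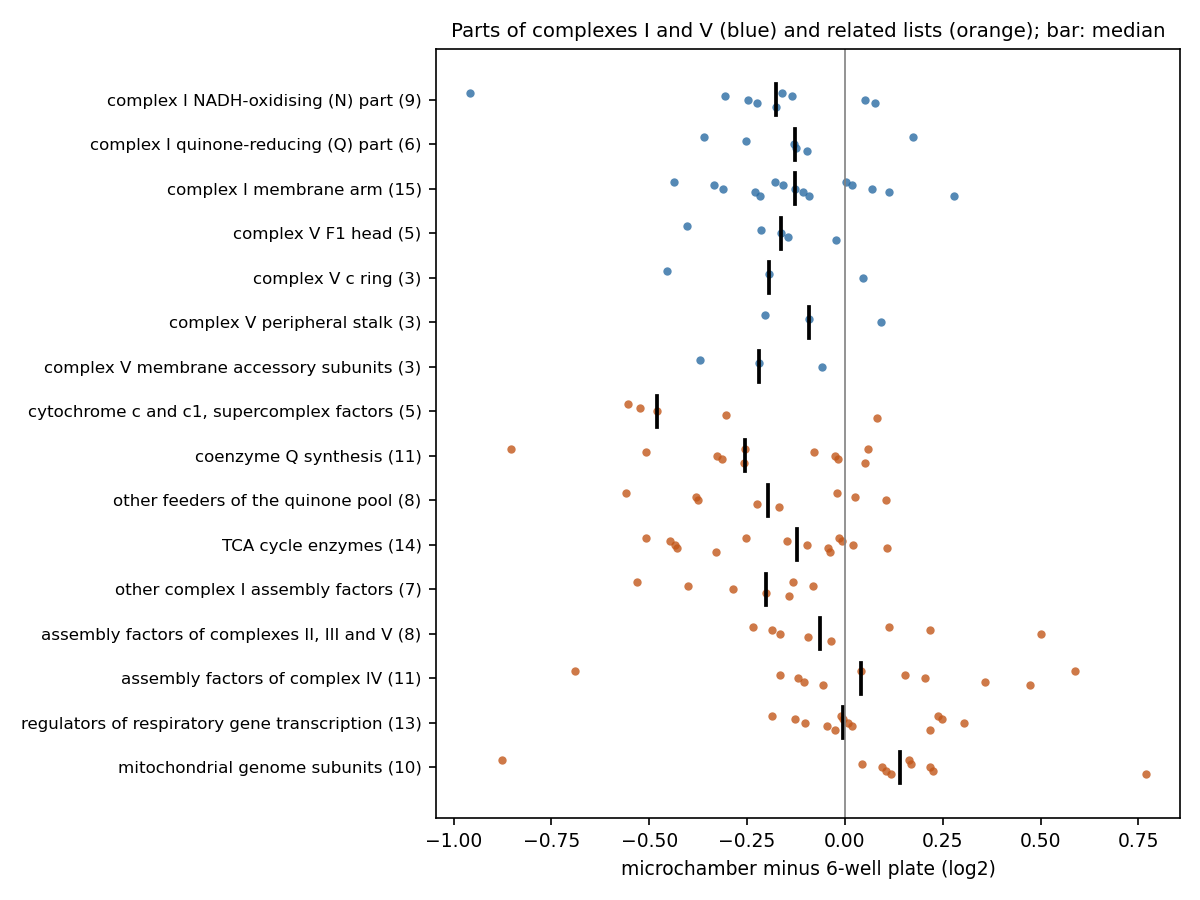
Difference of each gene (points, microchamber minus 6-well plate, log2) in the parts of complexes I and V (blue) and in related lists (orange), with list medians as black bars and the number of genes in brackets. The parts of the enzymes have medians from -0.22 to -0.09, the transcriptional regulators lie around 0, and 9 of the 10 mitochondrial genome genes with a single symbol lie above it.

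Transcriptional regulators of respiratory genes, nuclear and mitochondrial, differed little. Over 13 of them, including Tfam, Tfb1m, Tfb2m and Polrmt, which act on mitochondrial DNA, the median was -0.00, with 7 below 0. None was lower by 0.25 and 1, Yy1, was higher by that much. Over all genes 52.3% lay below 0, 15.1% were lower by 0.25 and 12.3% higher. Of the 14 regulators listed 3 lay below the median of single-symbol probe sets. Nrf1, which binds the NRF-1 site, had 8.35 in the chamber and 8.36 on the plate. Gabpa, the ETS factor, was at -0.10 and the oestrogen-related receptor Esrra at -0.01. Tfam, which packages mitochondrial DNA, was at 0.02. The largest were Yy1 at 0.30, Nfe2l2 (NRF2, an oxidative stress factor) at 0.248 and the coactivator Pprc1 at 0.24. Ppargc1a did not pass the filter, at 5.03 in the chamber and 4.95 on the plate.

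Assembly factors of the later complexes lay on both sides of 0. For complex IV 6 of 11 were higher in the chamber, with a median of 0.04, and 46.9% of all genes lay above 0. That count is thus near the share of all genes. Of the 15 complex IV members, which include Cox4nb, 12 were lower. Cox16 was highest at 0.59 and the copper carrier Sco1 stood at 0.47, whereas Cox18, which inserts a subunit into the membrane, was lowest at -0.69. For complexes II, III and V together 5 of 8 factors lay below 0, with a median of -0.06, and 52.3% of all genes did. Ttc19, which serves complex III, was highest at 0.50.

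Several members face another gene head to head, so that both start from the same stretch of DNA. Overlapping promoter windows on opposite strands were found for 18 of the 66 members with a window, and in 14 pairs both genes passed the filter. Members without a window, among them the neighbours Cox4i1 and Cox4nb, could not be searched. In these pairs 11 members and 7 neighbours lay below 0, with medians of -0.15 for the members and -0.00 for the neighbours. The 7 of 14 neighbours below 0 compare with 52.3% of all genes. In 8 pairs the genes lay on opposite sides of 0. In all 8 the member's own difference was within the within-gene standard deviation of 0.21. Of these members, Ndufb3 at 0.00 and Ndufaf2 at -0.01 hardly differed at all. Atp5f1, a stator subunit of the ATP synthase, starts 233 bases from Wdr77, a partner of the arginine methyltransferase Prmt5. Atp5f1 was at -0.20 and Wdr77, with 11.07 in the chamber and 10.67 on the plate, at 0.40. Its window is shown because it lies between 2 genes with opposite differences; it holds the NRF-1 core and CACGTG, in which ACGTG is read on both strands.
Atp5f1 promoter, chr3:105959214-105959513, minus strand: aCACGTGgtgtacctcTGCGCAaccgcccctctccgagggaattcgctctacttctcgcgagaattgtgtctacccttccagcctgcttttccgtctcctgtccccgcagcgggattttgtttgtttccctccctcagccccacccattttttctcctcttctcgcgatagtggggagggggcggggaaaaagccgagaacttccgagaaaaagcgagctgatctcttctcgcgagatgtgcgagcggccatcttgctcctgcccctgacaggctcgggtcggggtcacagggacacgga

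Atp5c1 (-0.15) lay 100 bases from the start of Kin (0.39), and Ndufa4 (-0.18) lay 377 from that of Phf14 (0.41). Ndufa7 (-0.16) starts 8 bases from the ribosomal protein gene Rps28 (0.17). Other pairs went together: Sdhd (-0.18) with Timm8b (-0.13), a chaperone of mitochondrial import, and Atp5j (-0.09) with Gabpa (-0.10). The reverse case was Atp5h at 0.09 beside Kctd2 at -0.51.

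**Figure D4:**
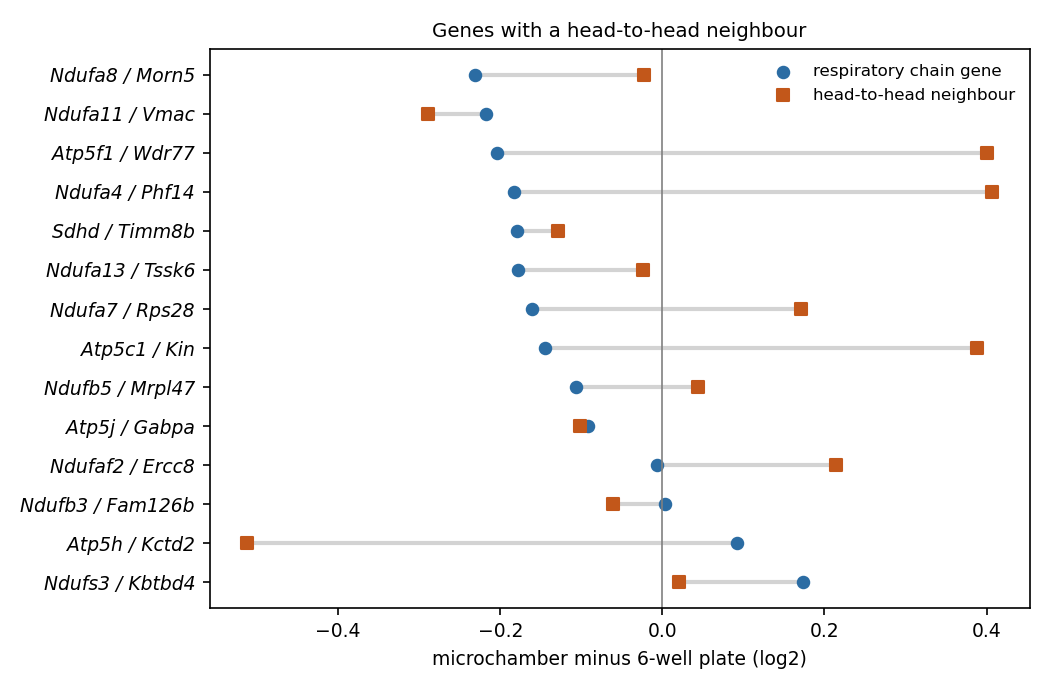
Differences (microchamber minus 6-well plate, log2) of 14 respiratory chain genes (circles) and their head-to-head neighbours (squares), sorted by the member. Neighbours lie on the other side of 0 in 8 pairs, with the widest splits for Atp5f1, Atp5h, Ndufa4 and Atp5c1. In all 8 the member itself is within 0.21 of 0.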

How the data were processed

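The deposited values were log2 intensities from 2 arrays, which the authors corrected for background, summarised per probe set and normalized with RMA, per the series design text. It also mentions filtering on raw signal. Transcriptome Analysis Console 3.0 and Affymetrix Expression Console 1.4.1 were used, per the submitters' processing notes, and the file headers name mm10. The authors' deposited log2 fold change is plate minus chamber, and their deposited fold is a ratio without direction; neither was used, and differences here are microchamber minus plate.

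Of 33793 probe sets, 24708 carried 1 symbol. Probe sets of a gene were averaged with pandas 2.3.3 in Python 3.11.15. The filter was the 20th percentile. No test was made, because each condition had 1 array; the number of arrays limits the precision. The calculation was tested on simulated data. Positions and promoters are from RefSeq (GRCm38.p6), in which all 79 members were found, 4 under another current symbol. The members, the lists and the naming rule (lowest and highest members of each class, catalytic subunits, isoform pairs, genes with several probe sets, and the largest differences of other lists) were chosen with earlier results of these data known. Genes named from the shared probe sets, from head-to-head pairs and for their role beyond that rule were chosen after their values were seen. The values of 1 member are not reported here, though it is included in the counts. The alternatives were other filters, centring, loess, the brightest probe set, the series value table, shared probe sets, other thresholds, means and narrower member lists.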

Additional observations from a re-analysis of the deposited data

How the results depend on the processing

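No paired analysis was possible because each condition had 1 array, and no array could be left out. Of 300 recomputed medians and counts of classes and lists, 290 kept their value within set limits. For a median the limit was the within-gene standard deviation divided by the square root of the number of genes. It was 0.023 for all members and 0.103 for complex II, and it treats the genes as independent. For a count the limit was 1.5 times the count. The series value table held the same values as the main table, so its recomputed results could not differ. Centring took the median of all genes, -0.01, from every difference, which is less than the limit for any median. The all-member median stayed between -0.16 and -0.12; it was -0.12 with the loess trend removed, and genes at or above the median level had a median of -0.03 before that. The complex IV median was -0.14 with the filter at the 50th percentile, which left out its dim isoforms, and -0.13 as a mean. At that filter the muscle and testis isoforms of complex IV had a median of -0.64 over 2 genes and the quinone feeders -0.30. Of the Ndufaf factors 1 in place of 2 lay below 0 after centring and after loess. The count of members at least 2-fold lower was 0, and became 5 at 0.5 and 19 at 0.25 log2 units; the count higher became 1 at 0.25. Removal of Cox4nb and use of shared probe sets under their respiratory chain symbol, both chosen after seeing the data, moved no class median or count past these limits. The sign of 1 list median, that of the transcriptional regulators, and of Cox6a1, Ndufaf2 and Atp5b changed under centring, loess or the filters, all from values near 0. Low signal limits what can be seen, since differences were narrower there.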

Other observations

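Genes that feed the chain were also mostly lower in the chamber. For reference, 52.3% of all genes lay below 0, and 54.0% of those at or above the median level. Of 11 genes of coenzyme Q synthesis 9 lay below 0, with a median of -0.25. Coq3, a methyltransferase of that pathway, had 8.17 in the chamber and 9.02 on the plate (-0.85, 1.81-fold lower), and Coq10a, a coenzyme Q binding protein, was at -0.51. Of 8 other genes that pass electrons to the quinone pool 6 lay below 0, with a median of -0.20, led by Dhodh of pyrimidine synthesis at -0.56, followed by the electron transfer flavoprotein subunit Etfb at -0.38 and Gpd2 of the glycerol phosphate shuttle at -0.37. Of these 8 genes 2 lay below the median of single-symbol probe sets. Of 14 citric acid cycle enzymes 12 lay below 0, with a median of -0.12. Fh1, fumarase, which acts directly after complex II, was lowest at -0.51, Idh3a was at -0.45 and Cs, citrate synthase, at -0.43. Higd2a and Higd1a, small inner membrane proteins that bind the chain's complexes, were at -0.52 and -0.48.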
